A study of Caenorhabditis elegans with 2 samples.

Results

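Of the 17118 Caenorhabditis elegans genes that an Affymetrix array measured with probe sets naming 1 gene, 10 were taken here for their part in the response to DNA damage: atm-1, atl-1, hus-1, mrt-2, chk-1, cep-1, egl-1, brc-1, brd-1 and rad-51. They were chosen by name, as the genes of the damage checkpoint, of damage-induced cell death and of repair by homologous recombination, and each was found on the array. Together they had 14 probe sets of their own, 2 each for atl-1, chk-1, cep-1 and brc-1 and 1 each for the other 6. RNA came from synchronized whole worms of the wild-type strain N2. The exposed worms were kept in the dark in S-medium, a liquid medium for worms, with nanoparticles of anatase, a crystal form of titanium dioxide, at 500 µg/ml. The control worms had no anatase. There was 1 array for each, and both were numbered replicate 3. The labels state neither how old the worms were nor how long they were exposed.

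In this pathway, broken DNA and stalled replication forks activate a pair of large kinases, which with a ring-shaped clamp loaded at the lesion pass the signal to effector kinases that stop the cell cycle. In the worm germline the p53-like factor CEP-1 then switches on cell death genes, so that damaged germ cells are removed, and breaks can be repaired by copying an intact DNA strand. Much of this regulation acts on the proteins, through phosphorylation and ubiquitin. The cell death gene egl-1 is a known exception, because CEP-1 raises its transcript after damage.

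The values are probe set intensities in arbitrary units on a linear scale. A gene's difference is the mean over its probe sets of log2(intensity + 16), anatase minus control, so a positive value means a higher signal in exposed worms. The added 16 understates the differences of dim genes. With 1 array in each group no difference below has a replicate check, a test or an error between worms, and that number of arrays sets how precise any value can be. Because whole worms were used, fewer cells of a type and less RNA per cell cannot be told apart.

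Both arrays were of like brightness, with a median intensity of 117.8 on the anatase array and 123.1 on the control array. Of 13606 genes bright enough to be compared, 644 differed by at least 2-fold, 226 upward and 418 downward with anatase, so 35.1% of those past 2-fold were higher. That share was 41.2% after median centring of each array, 48.7% after a loess correction and 48.5% after quantile normalization. The technical spread within the arrays could be read only from the 2293 compared genes with 2 probe sets, where it was 0.32 log2 units (SD) for a single probe set. In 4 equal groups by brightness it was 0.51, 0.39, 0.24 and 0.18 log2 units from the dimmest group to the brightest. Most of the genes past 2-fold, 561 of 644, lay in the dimmest group, where 16.5% of genes passed, against 51 of 3401, 21 of 3401 and 11 of 3402 genes in the others, from dim to bright.

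Most of the DNA damage genes read nearly alike on both arrays. For the kinase gene atm-1 signal was much lower with anatase, but its probe set was very dim there. Signal was moderately higher for cep-1, and for the other 8 genes the difference lay between −0.35 and 0.29 log2 units. Of the 10 genes, 5 were higher and 5 lower (6 and 4 after median centring of each array), beside 46.8% higher among all genes compared. Their median difference was −0.0068 log2 units, and that of all genes compared was −0.024; median centring turned these to 0.049 and 0.032. Of the 10, 9 lay within 0.5 log2 units of equal signal, beside 81.2% of all genes, but cep-1 lay at the edge, and 8 did so after median centring, loess or quantile normalization, beside 81.5%, 82.2% and 82.1% of all genes, or with 1 added in place of 16, beside 75.7%. At least 2-fold differences were found for 1 of the 10, beside 4.73% of all genes, and it was in the lower direction, which 3.07% of all genes shared. That gene was atm-1, which entered the comparison through its control value alone and so had to read lower with anatase. No member was at least 2-fold higher, beside 1.66% of all genes.

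**Figure D1:**
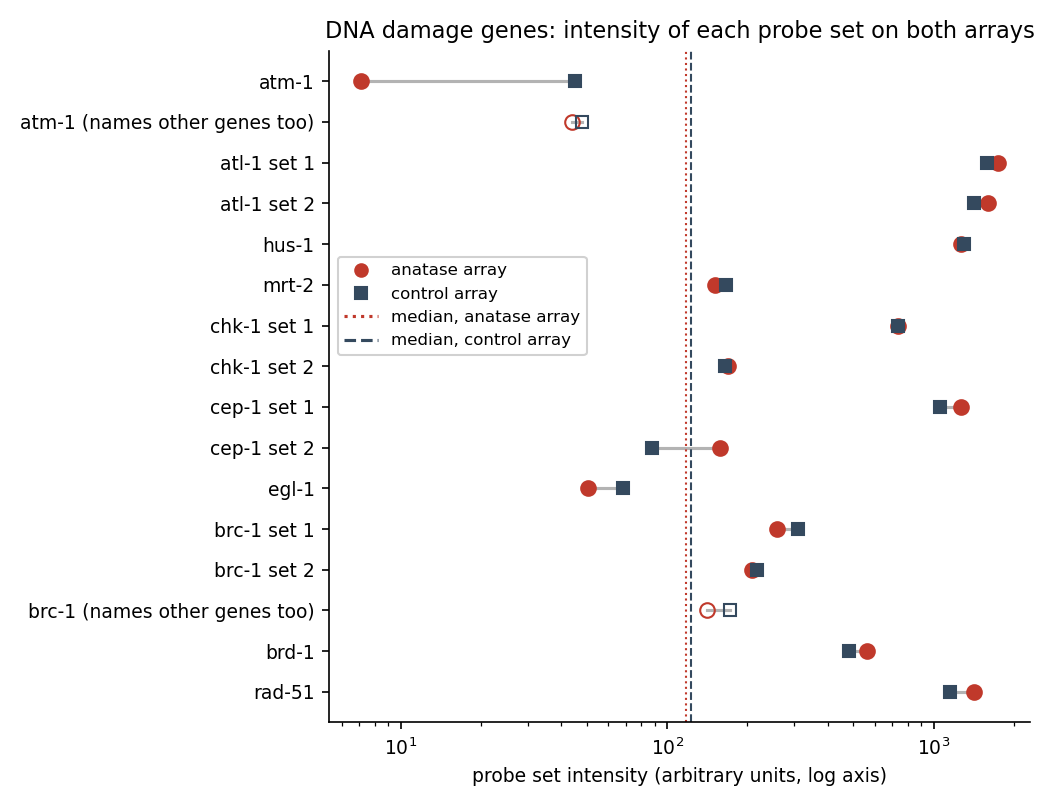
Intensity of each probe set of the 10 genes (arbitrary units, log axis), with circles for the anatase array, squares for the control array, and vertical lines at each array's median. Open symbols are 2 probe sets that name other genes too and were not used. For most probe sets both symbols lie close together; the widest gap is that of the atm-1 probe set, at 7.10 with anatase and 45.1 without it.

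At the top of the pathway stand the signalling kinases. atm-1 encodes the worm ATM kinase, which responds to double-strand breaks. Its single probe set read 7.10 on the anatase array and 45.1 on the control array, a log2 difference of −1.40 and a 2.65-fold lower signal on the log2(intensity + 16) scale. The anatase value was very dim: only 11.4% of all probe sets on that array were dimmer. The gene entered the comparison through its control value alone, since 7.10 lies under the lower quartile of the anatase array, 25.2, and 45.1 above that of the control array, 31.1. A gene that enters in this way had to differ.

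A second probe set read atm-1 together with 3 other genes and was left out for that reason. It gave 44.0 with anatase and 48.0 without, a log2 difference of −0.093, so it did not show the large difference of the first. Among the 3402 genes of the dimmest of the 4 brightness groups, where atm-1 lay, the median difference was −0.19 and the SD 0.68 log2 units. In that group 195 genes, or 5.73%, differed by as much as atm-1 in either direction. The value of atm-1 also depended on the added constant, with a difference of −2.51 when 1 was added in place of 16 and of −0.62 when 64 was added. Whether its dim signal lay above background is unknown, because the deposited values hold no detection calls.

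atl-1 encodes the ATR-like kinase, which responds to single-stranded DNA and stalled forks. Its probe sets read 1742 and 1600 on the anatase array, against 1582 and 1413 on the control array. Both were thus a little brighter with anatase, by 0.14 and 0.18 log2 units, and the gene's difference was 0.16. In the brightest group, where atl-1 lay, the SD over genes was 0.23, and 39.6% of genes differed by as much. Both of its probe sets belong to types whose probes may also match related transcripts, called shared probe sets below.

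hus-1 and mrt-2 encode a pair of the subunits of the checkpoint clamp, and mrt-2 is also needed to keep telomeres through the generations. hus-1 read 1264 with anatase and 1295 without, a log2 difference of −0.034. mrt-2 read 150.8 with anatase and 166.6 without, a difference of −0.13, which was −0.075 after median centring. Neither stood out among genes of its own brightness, of which 84.4% differed by as much as hus-1 and 71.8% by as much as mrt-2. The sign of hus-1 turned, to 0.022, after median centring of each array.

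chk-1 encodes the effector kinase that holds the cell cycle when ATR-type signalling is on. Its brighter probe set, a shared one, read 737.0 on the anatase array and 737.8 on the control array. Its dimmer one read 169.8 with anatase and 164.3 without. These log2 differences were −0.0015 and 0.043. The gene's difference of 0.021 was the smallest of the 10, and 93.4% of genes of like brightness differed by as much or more.

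Of the cell death arm, cep-1 read higher and egl-1 lower in exposed worms. cep-1, the worm p53-like transcription factor, had a bright probe set at 1267 with anatase and 1061 without, and a dimmer one at 157.8 with anatase and 88.0 without. Both differed in the same direction but by unequal amounts, 0.25 and 0.74 log2 units. The gene's difference of 0.50, a 1.41-fold higher signal, was the highest of the 10. Among the 3401 genes of its brightness group, with an SD of 0.30, 8.50% differed by as much in either direction. With the brightest probe set alone the difference was 0.25, beside a technical SD of 0.24 in that group.

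egl-1 encodes the small protein that frees the cell death machinery by binding CED-9. Its probe set read 50.5 on the anatase array and 68.5 on the control array, a log2 difference of −0.35. That difference was −0.20 after loess, −0.19 after quantile normalization and −0.21 with 64 added in place of 16. The probe set was dim on both arrays, and in the dimmest group 59.9% of genes differed by as much. The other known cell death target of CEP-1, ced-13, was too dim to be compared, at 6.20 with anatase and 10.2 without. Thus cep-1 read higher and egl-1, the only one of these targets compared, did not.

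The recombination genes differed by small amounts and not all in 1 direction. rad-51 encodes the recombinase that coats single-stranded DNA and finds the matching strand. It read 1416 with anatase and 1151 without, a log2 difference of 0.29 and a 1.23-fold higher signal. This was the largest difference of the 3 members in the brightest group, and 14.8% of genes of the brightest group differed by as much. Its only probe set is a shared one.

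brc-1 and brd-1 encode the partners of the worm BRCA1-BARD1 ubiquitin ligase, which acts with RAD-51 in repair between sister chromatids. The brc-1 probe sets read 258.1 and 207.9 on the anatase array, against 308.9 and 217.0 on the control array, and the gene's difference was −0.15, with −0.25 from the brighter probe set alone and −0.095 after median centring. A further probe set that names brc-1 and 1 other gene, left out of this value, was also dimmer with anatase, at 141.3 against 171.4. brd-1 read 561.6 with anatase and 481.6 without, a difference of 0.22. The partners thus lay on opposite sides of equal signal, each by less than the SD of 0.30 among genes of like brightness. All probe sets used for brc-1 and brd-1 are shared ones.

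**Figure D2:**
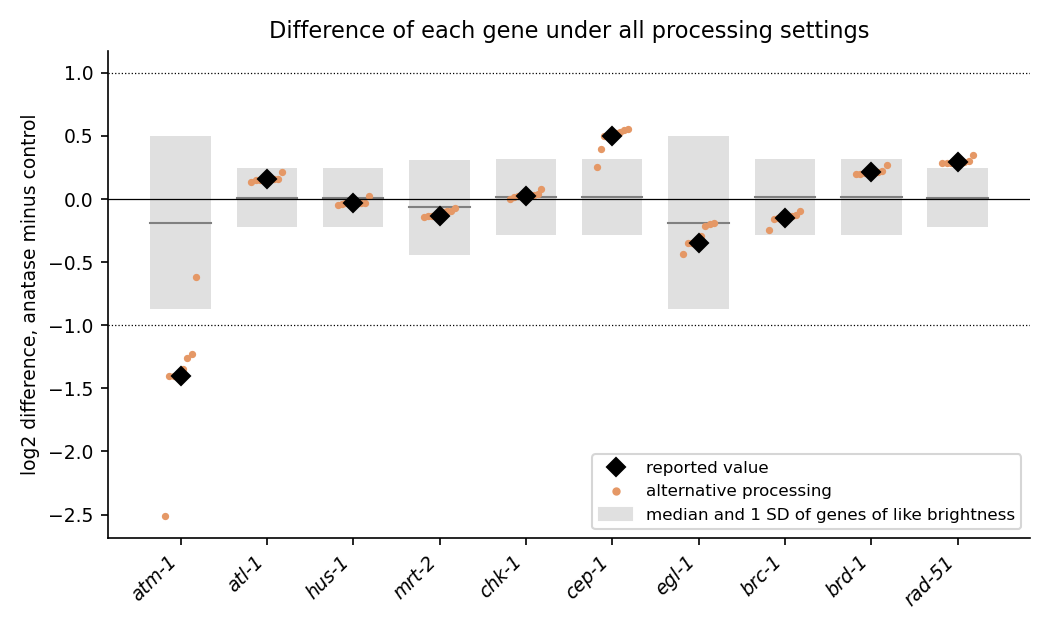
Log2 difference, anatase minus control, of each of the 10 genes: black diamonds are the reported values, orange points the same value under each alternative processing, and grey bars the median and 1 SD of all genes in the same brightness group; dotted lines mark 2-fold. Only atm-1, cep-1 and rad-51 lie outside their grey bar, and the alternatives of atm-1 run from −2.51 to −0.62.

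The split of the 10 genes by direction differed with brightness, but in the dim groups it rests on 3 genes. Of the 7 genes in the upper 2 brightness groups, 5 were higher with anatase (atl-1, brd-1, cep-1, chk-1 and rad-51) and 2 lower. Of the 5, chk-1 was nearly equal, at 0.021, and turned to −0.0015 with its brightest probe set. All 3 in the lower 2 groups, atm-1, egl-1 and mrt-2, were lower, but atm-1 had to be, as it entered through its control value alone. Over all genes the share higher was 52.9% in the upper 2 groups and 40.6% in the lower 2. The part of this array-wide tilt in the pattern of the 10 genes was not tested. After a loess correction for the array-wide tilt the differences of all 3 dim members were smaller. They were −1.23 for atm-1, −0.20 for egl-1 and −0.092 for mrt-2, and of the 10 genes 5 were higher and 5 lower. Before that correction, egl-1 and mrt-2 already differed by less than the SD of their brightness groups, 0.68 and 0.37 log2 units.

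**Figure D3:**
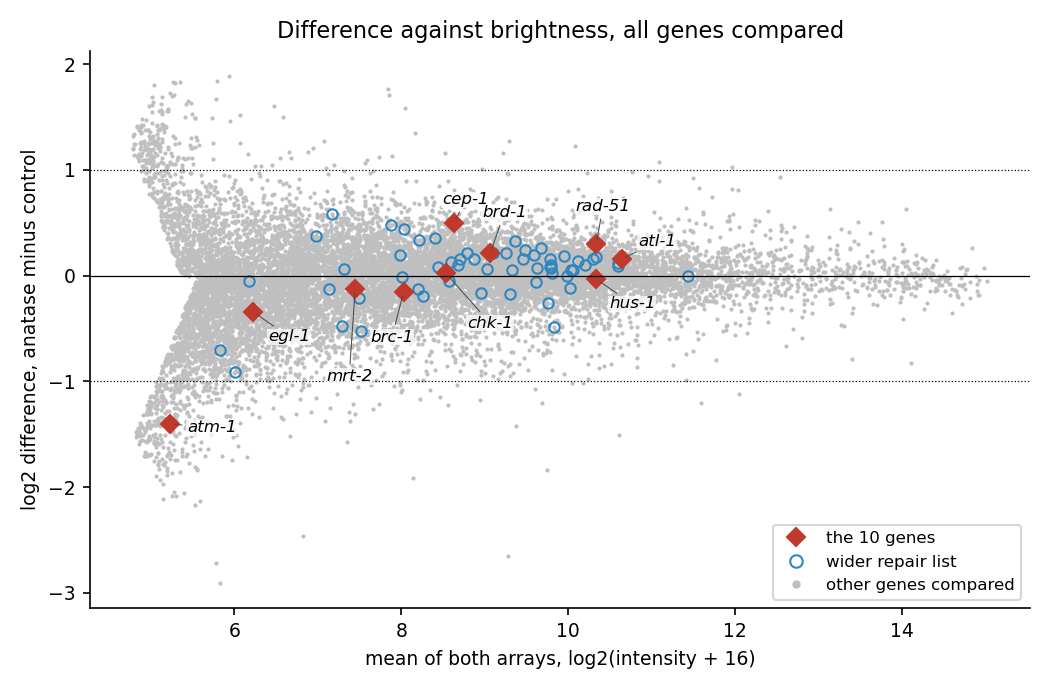
Log2 difference, anatase minus control, against the mean log2(intensity + 16) of both arrays for the 13606 genes compared (grey), with the 10 genes as red diamonds and the wider repair list as blue circles; dotted lines mark 2-fold. The spread is widest at the dim end, where atm-1 and egl-1 lie, and narrows to the right, where atl-1, hus-1 and rad-51 lie.

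To see the rest of the pathway, 61 further genes of checkpoint signalling, cell death and 7 forms of DNA repair and damage tolerance were listed by role. Of these, 59 were measured and 57 bright enough to be compared. With anatase 38 were higher and 19 lower, beside 46.8% higher among all genes compared. These counts were 43 and 14 after median centring, beside 54.3% higher, and 39 and 18 after loess, beside 50.7%. Their median difference was 0.083 log2 units, beside −0.024 over all genes compared. None was at least 2-fold different, beside 4.73% of all genes, and 2 differed by at least 1.5-fold, beside 14.3% of all genes. Of the 57, however, 47 lay in the upper 2 brightness groups, where 0.617% and 0.323% of all genes passed 2-fold, so a count of 0 is near the share of genes of like brightness. The share past 1.5-fold was not taken by brightness group, so the count of 2 has no share of like brightness beside it. The split differed with brightness here too. Of the 47, 35 were higher (74.5%), beside 52.9% of all genes in the upper 2 groups. In the lower 2 groups 3 of the 10 were higher, beside 40.6% of all genes there.

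The other genes of the checkpoint were mixed. hpr-9, which encodes the remaining subunit of the clamp with HUS-1 and MRT-2, read 160.0 with anatase and 101.7 without, a difference of 0.58. This highest value of the wider list came from 1 probe set. In its brightness group, the second dimmest, the SD over genes was 0.37 and the technical SD 0.39. hpr-17, for the loader of that clamp, was at −0.055, a sign that turned with median centring. chk-2, a kinase of meiotic prophase, had the largest difference of the wider list, −0.91, but was dim, at 31 with anatase and 72.3 without. Both hpr-17 and chk-2 were read by shared probe sets only. In the cell death core, ced-9, which holds cell death back and is bound by EGL-1, was at −0.21, with both of its probe sets lower.

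Among repair genes, the 19 compared in homologous recombination had a median of 0.081, with 12 higher and 7 lower (16 and 3 after median centring). Over all genes compared 46.8% were higher, and 54.3% after median centring. The genes of this role whose sign turned had lain close to equal signal, between −0.054 and −0.0055. Their largest difference was that of sws-1, −0.53, whose product works with RAD-51 paralogs. All 4 end joining genes were higher, by 0.050 to 0.48, beside 46.8% higher among all genes compared. The largest was polq-1, which encodes the polymerase of microhomology-driven joining, at 0.48. Its 3 probe sets differed by 0.12, 1.19 and 0.11, so that value rests on 1 dim probe set, at 72.2 with anatase and 22.6 without.

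In nucleotide excision repair 6 of 8 genes were higher, but the largest difference was the lower value of xpc-1, the lesion-recognition gene, at 757.0 with anatase and 1063 without, a difference of −0.48. In base excision repair 4 of 7 were higher, with the endonuclease gene exo-3 at 0.21. All 3 mismatch repair genes were higher, from 0.049 to 0.24, the largest being mlh-1. So were all 4 translesion polymerase genes, from 0.063 to 0.21, the largest being polh-1. Over all genes 46.8% were higher, and 52.9% in the upper 2 brightness groups. In those 2 groups the technical SD of a single probe set was 0.24 and 0.18. The 6 crosslink repair genes split evenly, with fnci-1, dim on both arrays, at −0.71 and its partner fcd-2 at 0.44. Of the genes named here, exo-3, mlh-1, polh-1 and fcd-2 were read by shared probe sets only.

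**Figure D4:**
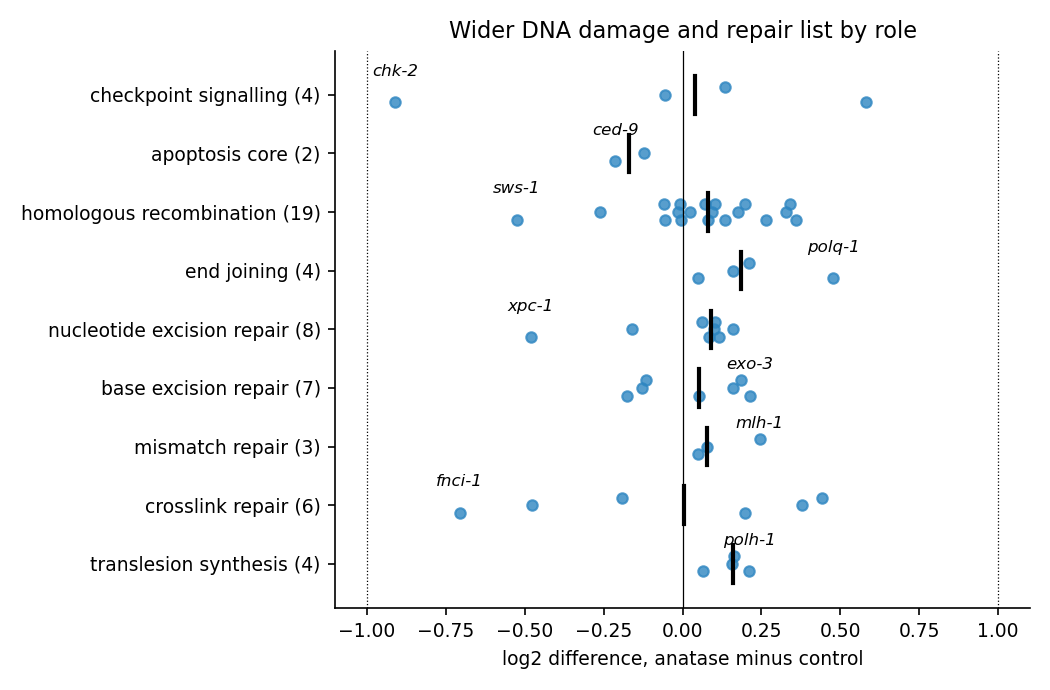
Log2 difference, anatase minus control, of the 57 genes of the wider list by role; each point is a gene, black bars are medians, the number of genes is in brackets, dotted lines mark 2-fold, and the gene with the largest difference of each role is named. All points lie between −0.91 and 0.58.

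Many DNA damage genes are expressed chiefly in the germline, so markers of germline tissues were read beside them. All of those measured were bright enough to be compared. Of 12 general germline markers 6 were higher and 6 lower, with a median difference of −0.016 (0.040 after median centring), a range of −0.18 to 0.31 and a summed intensity of 20683 with anatase and 20273 without. Of 6 oocyte markers 3 were higher and 3 lower, with a median of −0.0053, which median centring turned to 0.051. All 6 measured sperm markers were higher, beside 46.8% of all genes compared. They did so unevenly, from 0.0052, nearly equal signal, to 0.54, with a median of 0.24. Their summed intensity was 4417 with anatase and 3633 without. Among them spe-9, gsp-3 and gsp-4 were read by shared probe sets only. The part of the sperm signal in the small higher values of cep-1, rad-51 and brd-1 was not tested.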

How the data were processed

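Per the labels' protocols, Trizol was used to isolate total RNA, from which biotinylated cRNA was made for Affymetrix arrays. The authors deposited 1 intensity for each probe set on each array. Transcriptome Analysis Console is named in the submitters' processing notes, while its version, summary method and scaling are not stated there. Of 22548 probe sets, the 20766 for which the platform annotation names exactly 1 gene were used. Of these, 99.7% matched a RefSeq gene table by gene number, with 0 differing symbols. The array names no build, so no coordinates are printed.

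Values were converted to log2(intensity + 16) and averaged over a gene's probe sets. A gene was compared if, on its brighter array, it lay at or above that array's percentile 25 over probe sets. The 10 genes and all lists were chosen with earlier results of these data known. Named genes were the 10 members and the largest difference of each role or marker list; hpr-9, hpr-17, ced-13 and fcd-2 were added after their values were seen. Alternatives changed the scaling, constant, brightness filter, choice of probe sets and fold threshold. The steps were tested on simulated data. Computations ran in Python 3.11.15 (statsmodels 0.14.6 for loess, matplotlib 3.10.9 for figures, pandas 2.3.3, numpy 2.4.6).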

Additional observations from a re-analysis of the deposited data

How the results depend on the processing

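No paired analysis was possible because 1 array stands for either group. The median of the 10 genes stayed close to 0 in all 9 alternatives that gave it, from −0.082 without shared probe sets (6 genes left) to 0.089 with the brightness filter at the median (8 left). Without shared probe sets atl-1, brc-1, brd-1 and rad-51 had no value, and with the filter at the median atm-1 and egl-1 had none. The count of members past 2-fold was 0 with a constant of 64 or the filter at the median, and 0 at a 3-fold threshold. Signs turned only for hus-1, 0.022 after median centring, and chk-1, −0.0015 with the brightest probe set. The median of the wider list was 0.14 after median centring. Over all genes, 644 passed 2-fold, 1226 with a constant of 1, 36 with 64 and 79 with the filter at the median; 1941 passed 1.5-fold and 99 passed 3-fold.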

Other observations

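Markers of somatic tissues were also read, as the arrays come from whole worms. Beside the counts that follow, 46.8% of all genes compared were higher with anatase, and 54.3% after median centring of each array. Of 7 intestinal markers 5 were lower with anatase, with a median log2 difference of −0.14, and the largest was that of the peptide transporter gene pept-1, −0.90, at 521.6 with anatase and 984.4 without. All 5 hypodermal markers were lower, with a median of −0.12, and the cuticle collagen gene dpy-7 was at −0.37. Of 5 muscle markers 3 were higher, with a median of 0.052 and the myosin gene myo-3 at 0.43. Of 6 neuronal markers 5 were higher, with a median of 0.097 and the synaptic gene ric-4 at −0.30. Among germline and sperm markers the largest differences were those of fbf-2, an RNA-binding regulator of germline stem cells, at 0.31, and of spe-11, a sperm-supplied factor of the egg, at 0.54. Among oocyte markers it was that of oma-1, at −0.18. The probe sets of fbf-2 disagreed, at 0.0088 and 0.61. Only shared probe sets read dpy-7, myo-3 and oma-1.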
